A study of Homo sapiens with 39 samples.

Results

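Untreated cells of TetOn clone 5 were compared with untreated cells of TetOn clone 4. Both are clones of hTERT-RPE1, a telomerase-immortalised human retinal pigment epithelial line, and both carry a doxycycline-inducible (TetOn) TRIM37 transgene that was left uninduced in the libraries compared. Each clone is represented by 3 untreated libraries, 6 of the 39 RNA sequencing libraries of the series. Another 3 libraries of clone 5 and 3 of clone 4 had received 1 µM doxycycline for 24 h. The study asked how the dose of TRIM37, a ubiquitin ligase, affects gene expression in RPE1 and neuroblastoma cells. Besides the clones, 9 libraries of an RPE1 TRIM37 knockout and 9 of wild type RPE1 are used here. Neither clone lost TRIM37, so the contrast shows how far RPE1 sublines stood apart without its loss. The uninduced clones did differ in TRIM37 level, given below, which cannot be told apart from other properties of a clone. Each clone is 1 isolate, and a property of a clone cannot be told apart from the chance of its isolation. Nothing in the labels says that the 3 libraries of a group were separate cultures, so every test below measures only the spread between these libraries, which may be technical.

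The values used here give groups and not libraries. The level of a gene is its mean normalised read count in the untreated libraries of a clone, worked out from the mean count and the treated-to-untreated ratio in the authors' deposited tables. The clones stand in separately normalised tables, and each table was scaled to a common sum of 25000624 counts, so all levels compared between clones are set across tables. Genes whose mean count was 50 or more in either table were taken, which gave 11273 of 23710 genes. Of these, 10889 reached the minimum in both tables, 169 through the clone 5 table only and 215 through the clone 4 table only. The genes nearest the limit were SNORD29 inside it, with a highest mean count of 50 and levels of 42.5 in clone 5 and 46.3 in clone 4, and ZNF487P outside it, with 49.9 and levels of 37.9 in clone 5 and 41.2 in clone 4. The difference between clones is log2 of the clone 5 level plus 1 minus log2 of the clone 4 level plus 1, with the standard error (SE) taken from the tables. These SEs look shrunken at low counts, so an SE given with a level of a few counts understates the error. A gene was called when it differed at least 2-fold with an adjusted p under 0.05 in a two-sided normal (Wald) test with Benjamini-Hochberg adjustment over all 11273 genes.

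Cells of a clone descend from 1 founder, and expression states that are copied at cell division, such as promoter methylation, as well as changes in chromosome number, pass to all of them. Genes with promoters rich in CG dinucleotides can be kept silent through many divisions by methylation of those sites. The zinc finger genes of the KRAB family, which repress transposable elements, lie in clusters on chromosome 19. Retinal pigment epithelium is a pigmented, cytokeratin-positive epithelium behind the photoreceptors, and cultured lines derived from it take on mesenchymal traits.

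TRIM37 itself had a level of 6619 in untreated clone 5 and 3703 in untreated clone 4, a difference of 0.84, SE 0.043, that stayed under 2-fold. The level in wild type RPE1 was 1725, so both uninduced clones were above it, by 1.94 in clone 5 and 1.10 in clone 4 on the same log2 scale. The tables do not separate the transgene from the chromosomal copy. The labelled cell type was checked against its markers. The visual cycle and pigment genes RPE65, TYR and DCT had levels under 1 in both clones, and the eye field regulator gene RAX was listed at 0 in both. Other regulator genes of pigment epithelium and eye field were measured at higher levels. MITF had a level of 1163 in clone 5 and 1011 in clone 4, OTX2 of 508 in clone 5 and 553 in clone 4, and PAX6 of 732 in clone 5 and 988 in clone 4. The keratin gene KRT18 stood at 15687 in clone 5 and 10479 in clone 4, and the mesenchymal filament gene VIM at 155037 in clone 5 and 179864 in clone 4. Summed over their whole lists, 23 pigment epithelium markers came to 34109 in clone 5, 27303 in clone 4 and 37463 in wild type, of which 10 were under 1 in clone 5 and 9 in clone 4. The keratin genes KRT8 and KRT18 made up 85.6% of this sum in clone 5 and 80.0% in clone 4, and the other 21 markers came to 4901 in clone 5, 5450 in clone 4 and 5754 in wild type. The 18 fibroblast markers came to 208806 in clone 5, 218331 in clone 4 and 230222 in wild type. VIM alone held most of each of these sums, so they say little about the other fibroblast markers. Of the 11 measured fibroblast markers 5 were higher and 6 lower in clone 5. COL1A1 and POSTN were called higher and none was called lower. The 16 epithelial markers came to 30086 in clone 5 and 22596 in clone 4, with the same pair of keratins at 97.1% of the sum in clone 5 and 96.7% in clone 4. Of these markers 8 were under 1 in clone 5 and 8 in clone 4, among them CDH1, EPCAM, CLDN3, ESRP1, GRHL2 and RAB25 in both clones. The 22 neuronal and neural crest markers came to 9386 in clone 5 and 9362 in clone 4. The 13 endothelial and blood cell markers together came to 97.5 in clone 5 and 104 in clone 4. LRAT, the acyltransferase that stores retinol as esters, was the 1 called gene among the pigment epithelium markers, at 3.11 in clone 5, 94.8 in clone 4 and 6.14 in wild type.

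Between the untreated clones 521 genes were called, 4.62% of those tested. Clone 5 was higher for 270 genes, which is 2.4%, and lower for 251, which is 2.23%. The typical gene differed little, with a median absolute difference of 0.16 beside a median SE of 0.063. The tails were long, since 99 genes were at least 4-fold higher and 72 at least 4-fold lower in clone 5, and 25 were at least 32-fold higher and 23 at least 32-fold lower. In these bulk libraries, fewer cells expressing a gene and less RNA per cell cannot be told apart. The fold decided every call: none of the genes past 2-fold missed the adjusted p, and 6015 genes, 53.4%, passed the adjusted p at any fold. Of the called genes, 232 reached the count minimum in 1 table only and thus had to differ in level. Among the 10889 genes over the minimum in both of the tables, 142 were higher and 147 lower in clone 5. The authors' Status was Outlier in either table for 27 of the called genes.

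**Figure D1:**
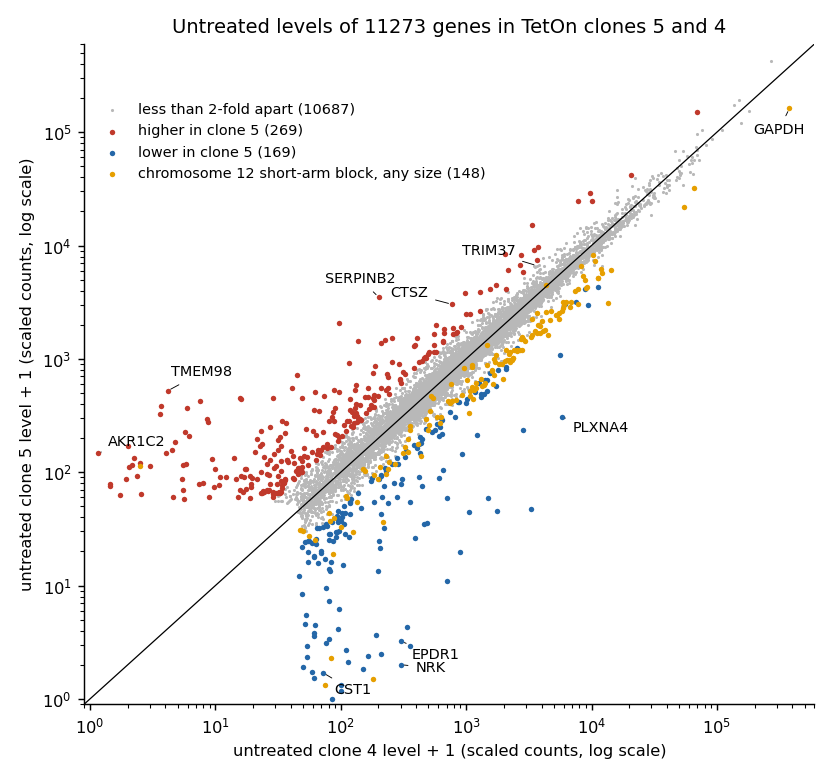
Untreated level plus 1 of each of the 11273 genes in clone 5 (vertical axis) against clone 4 (horizontal axis), in scaled counts on log axes, with equal levels on the diagonal. Most genes lie along the diagonal, 269 called higher and 169 called lower genes lie off it, and the 148 genes of the chromosome 12 short-arm block lie mostly below it.

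The doxycycline-treated libraries of the same clones gave a second pair of levels. All 521 genes kept the sign of their difference there, the smallest absolute value being 0.51, and 435 were called again among 470 called in treated libraries, 4.17% of the genes tested. These 435 are 83.5% of the untreated and 92.6% of the treated calls. Treated and untreated levels of a clone come from the same mean count and a ratio that was mostly near 1, so the pairs are not independent.

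EPDR1, which encodes an ependymin-related secreted glycoprotein, had a level of 2.23 in clone 5 and 301 in clone 4, a difference of -6.55, SE 0.075. The wild type level was 450, so clone 5 was the low one. CST1, which encodes cystatin SN, an inhibitor of cysteine proteases, stood at 0.70 in clone 5 and 71.4 in clone 4 (difference -5.41, SE 0.11). Here the wild type level was 5.26, and clone 4 was above it while clone 5 was below. CTSZ, which encodes the lysosomal protease cathepsin Z, was higher in clone 5, at 3028 against 770 in clone 4 (difference 1.97, SE 0.050), with wild type between them at 1641. In the treated libraries these genes differed by -6.49 for EPDR1, -5.04 for CST1 and 1.90 for CTSZ. The promoter windows of EPDR1 and CTSZ are shown because these genes mark the contrast from opposite sides and differ in CG content. They run from 250 bases before to 50 bases after the gene start in RefSeq's GRCh38.p14 table, 5′ to 3′ on the gene's own strand, with each CG dinucleotide in capitals. EPDR1 (chr7:37920390-37920689, plus strand) holds 7 CG dinucleotides and CTSZ (chr20:59007205-59007504, minus strand) holds 37.
EPDR1: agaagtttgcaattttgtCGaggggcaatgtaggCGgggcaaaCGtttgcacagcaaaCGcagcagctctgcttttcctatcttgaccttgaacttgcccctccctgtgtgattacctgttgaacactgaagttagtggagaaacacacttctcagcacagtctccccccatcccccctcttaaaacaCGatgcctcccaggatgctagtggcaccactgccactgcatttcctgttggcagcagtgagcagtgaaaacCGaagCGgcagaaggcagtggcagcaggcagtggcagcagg
CTSZ: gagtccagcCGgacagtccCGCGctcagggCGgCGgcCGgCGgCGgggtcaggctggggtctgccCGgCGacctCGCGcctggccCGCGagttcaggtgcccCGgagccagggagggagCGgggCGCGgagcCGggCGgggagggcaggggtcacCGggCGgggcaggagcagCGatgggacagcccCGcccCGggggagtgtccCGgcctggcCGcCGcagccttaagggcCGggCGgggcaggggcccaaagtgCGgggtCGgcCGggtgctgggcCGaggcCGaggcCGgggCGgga

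The highest and lowest differences were near on-off contrasts, and the SEs given with them understate the error of the low level. AKR1C2, a steroid-reducing aldo-keto reductase, had a level of 147 in clone 5 and 0.15 in clone 4 (difference 7.0, SE 0.091), and its wild type level was 2.04. The paralog AKR1C3 moved with it, at 113 in clone 5 and 2.00 in clone 4, although reads may be shared between these similar genes. TMEM98, which encodes a transmembrane protein that binds the myelin regulator MYRF, stood at 521 in clone 5, 3.16 in clone 4 and 544 in wild type. HSPB7, a small heat shock protein gene best known from heart muscle, stood at 384 in clone 5, 2.70 in clone 4 and 577 in wild type. ARRDC4, an arrestin-domain gene linked to glucose uptake, stood at 322 in clone 5, 2.60 in clone 4 and 242 in wild type. In these last 3 genes clone 5 was close to wild type and clone 4 was the low one. The angiomotin gene AMOT, whose product binds the co-activator YAP, stood at 133 in clone 5, 1.23 in clone 4 and 270 in wild type, and the neurexin gene NRXN3 at 421 in clone 5, 6.58 in clone 4 and 888 in wild type. GALC, which encodes the lysosomal galactosylceramidase, stood at 78.1 in clone 5, 0.44 in clone 4 and 253 in wild type.

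On the lower side, NRK, a Ste20-type kinase gene, had a level of 1.01 in clone 5, 300 in clone 4 and 340 in wild type (difference -7.23, SE 0.082). FERMT1, which encodes the integrin activator kindlin-1, stood at 1.92 in clone 5, 353 in clone 4 and 56.1 in wild type. For EYA4, a transcriptional co-activator gene, clone 5 was listed at 0, against 83.5 in clone 4 and 137 in wild type. CTSF, the gene of lysosomal cathepsin F, stood at 1.5 in clone 5, 209 in clone 4 and 308 in wild type. TP73, a transcription factor gene of the p53 family, stood at 3.31 in clone 5, 337 in clone 4 and 81.1 in wild type. The adhesion genes MDGA2 and NCAM2 had levels of 0.84 and 0.34 in clone 5, against 149 and 99 in clone 4, with wild type at 143 for MDGA2 and 22.6 for NCAM2. PGM5, which encodes a phosphoglucomutase-like protein of adhesion sites, stood at 18.8 in clone 5, 899 in clone 4 and 1568 in wild type. A level under 1 rests on fewer than 1 normalised read per library, so these large differences depend on the pseudocount of 1 and on the few reads behind the lower level.

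**Figure D2:**
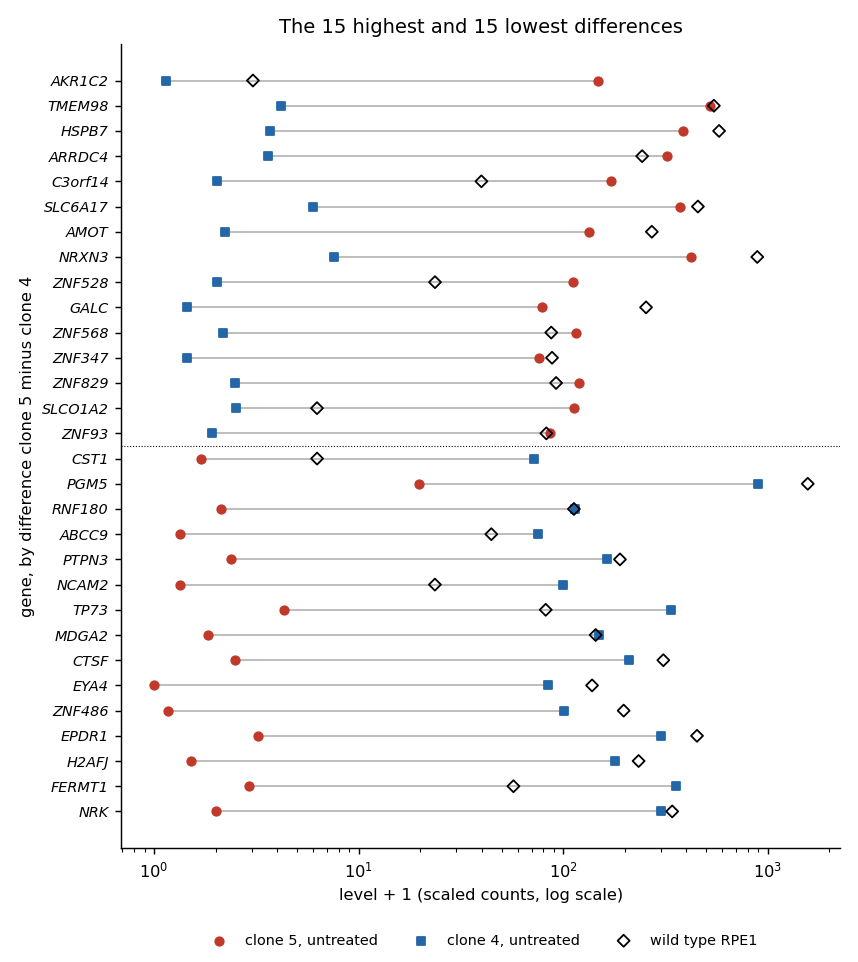
Levels plus 1, in scaled counts on a log axis, of the 15 genes with the highest and the 15 with the lowest difference in untreated clone 5 (circles), untreated clone 4 (squares) and wild type RPE1 (open diamonds). Genes above the dotted line were higher in clone 5, such as TMEM98 at 521 against 3.16, and genes below it were lower, such as EPDR1 at 2.23 against 301.

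Defining a gene as on in a clone at a level of at least 50 and off at a level under 2, 31 genes were on in 1 clone and off in the other. Of these, 13 were on in clone 5 and 18 on in clone 4, and 30 met the same limits in the treated libraries. By this definition each of the 31 reached the count minimum only through the clone where it was on. The counts below therefore describe these genes and are no test against all genes. Wild type had a level of at least 20 for 10 of the 13 genes on in clone 5 and for 16 of the 18 genes on in clone 4, so the silent state was mostly the one that differed from wild type. Zinc finger genes made up 6 of the 13 genes on in clone 5, namely ZNF93, ZNF347, ZNF528, ZNF568, ZNF829 and ZNF853, and 1 of the 18 on in clone 4, ZNF486. Over all 11273 genes, 372 were ZNF genes. ZNF568 had a level of 115 in clone 5, 1.17 in clone 4 and 86.4 in wild type. ZNF829 stood at 119 in clone 5, 1.5 in clone 4 and 91.3 in wild type. In gene order these are neighbours on chromosome 19, transcribed away from each other, and their promoter windows overlap by 140 bases with 11 CG dinucleotides (chr19:36916242-36916381). ZNF528 was on in clone 5 at 111, off in clone 4 at 1.03 and intermediate in wild type at 22.6. ZNF486 went the other way, at 0.17 in clone 5, 100.1 in clone 4 and 197 in wild type. The windows of the neighbouring pair are shown because both genes were on and off together. ZNF568 (chr19:36916082-36916381, plus strand) holds 25 CG dinucleotides and ZNF829 (chr19:36916242-36916541, minus strand) holds 27, in capitals.
ZNF568: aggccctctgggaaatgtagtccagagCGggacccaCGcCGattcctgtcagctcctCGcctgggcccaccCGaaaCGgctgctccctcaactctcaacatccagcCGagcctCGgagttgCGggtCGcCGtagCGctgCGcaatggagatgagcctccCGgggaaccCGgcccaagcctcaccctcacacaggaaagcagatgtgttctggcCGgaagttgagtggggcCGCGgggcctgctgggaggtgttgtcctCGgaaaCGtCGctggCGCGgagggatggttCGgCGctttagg
ZNF829: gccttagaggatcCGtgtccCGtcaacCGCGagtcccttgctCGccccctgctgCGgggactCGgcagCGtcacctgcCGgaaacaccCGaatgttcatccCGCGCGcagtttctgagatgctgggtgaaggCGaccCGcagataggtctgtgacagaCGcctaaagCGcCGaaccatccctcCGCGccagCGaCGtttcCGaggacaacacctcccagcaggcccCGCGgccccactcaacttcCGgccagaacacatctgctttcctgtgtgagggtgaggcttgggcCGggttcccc

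RefSeq promoter windows were found for 26 of the 31 on-off genes, and 20 of them (76.9%) held at least 10 CG dinucleotides, a motif that reads the same on both strands. The share was 81.2% of the 405 called genes with a window, 91.5% of all 9215 member genes with one and 56.4% of all promoters in the table. The median was 22.5 CG dinucleotides for the on-off genes, 24 for called genes and 27 for all member genes. A CG count describes the sequence, and methylation was not measured.

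The whole list of 372 measured ZNF genes had 22 called higher and 9 called lower in clone 5, and its median difference was 0.09, beside 0.01 for all genes. In all, 8.33% of the list was called, beside 4.62% of all genes. On chromosome 19 the count was 14 higher and 2 lower of 167, and 11 of the 14 had clone 4 alone at least 2-fold from wild type. Of these 14, only ZNF266, ZNF350 and ZNF569 reached the count minimum in both tables. The others reached it through the clone 5 table only, and the lower genes ZNF486 and ZNF525 through the clone 4 table only. Genes that reached it in 1 table only had to differ in level, so most of this count rests on such genes. The 584 other measured genes of chromosome 19 held 17 higher and 3 lower. ZNF genes elsewhere held 8 higher and 7 lower of 205. The higher ZNF genes on chromosome 19 did not form an unbroken stretch. Of the 10 measured genes in order from ZNF829 to ZNF570, 5 were higher in clone 5 (ZNF829, ZNF568, ZNF585B, ZNF569 and ZNF570), and the others differed by -0.51 to 0.95. Of the 21 from ZNF350 to ZNF525, 6 were higher and 1 lower, and the rest differed by -0.24 to 0.81. ZNF28 in that stretch stood at 170 in clone 5, 32.2 in clone 4 and 214 in wild type, whereas its neighbour ZNF611 stood at 164 in clone 5, 146 in clone 4 and 151 in wild type. These stretches were chosen after their values were seen. Many ZNF genes of a cluster are similar in sequence, and how the authors counted reads with several matches is not stated, so reads may be shared among them.

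The largest contiguous difference lay on the short arm of chromosome 12. From KDM5A to ALG10, 148 neighbouring measured genes had a median difference of -1.03 (quartiles -1.20 and -0.84), so clone 4 levels were 2.05 times those of clone 5 at the median. Of these genes 146 lay below 0, 132 were at least 1.5-fold lower in clone 5, 82 (55.4%) were called lower and 1 called higher. These 82 genes are 32.7% of all genes called lower in clone 5. The shift ended between neighbours: ALG10 stood at 116 in clone 5 and 271 in clone 4, and ALG10B, the next measured gene, at 220 in clone 5 and 210 in clone 4. The other 461 measured genes of chromosome 12 had a median difference of -0.0072, with 8 called higher and 4 called lower. Medians of 20 neighbouring genes ran from -1.20 to -0.87 inside the block and from -0.27 to 0.37 in 1903 such windows on the other chromosomes. Against wild type, the block's median was -0.14 in clone 5 and 0.86 in clone 4, and that of the rest of the chromosome was -0.015 in clone 5 and -0.0023 in clone 4. In the knockout against wild type the median change in the authors' deposited table was 0.42 for the block and 0.53 for the rest of the chromosome. The block thus did not stand above the rest there, as it did in clone 4. These are the authors' fold changes and not levels set across tables. Their median over the other chromosomes is not given here. No measurement of DNA was used here.

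**Figure D3:**
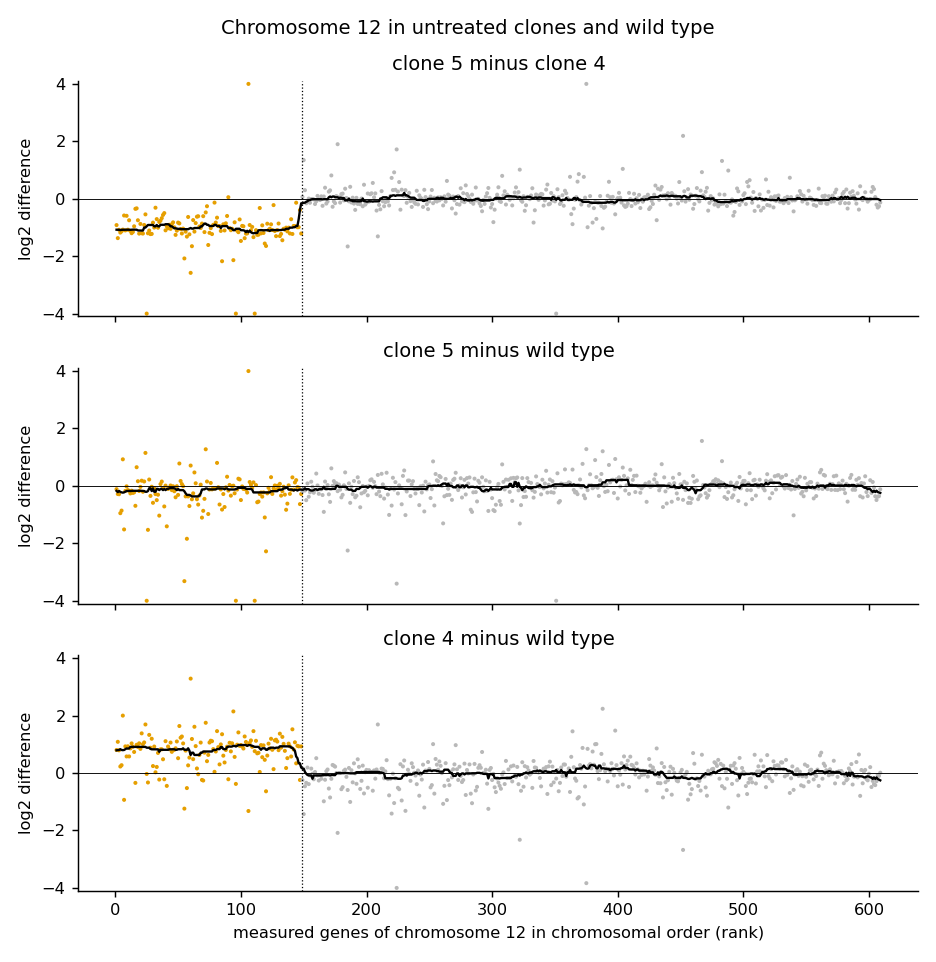
Log2 differences of the 609 measured genes of chromosome 12 in chromosomal order, for clone 5 minus clone 4, clone 5 minus wild type and clone 4 minus wild type, with a running median of 21 genes as a line and values beyond 4 drawn at 4. The dotted line marks the end of the 148-gene block (orange points), where the line lies near -1 in the top panel, near 0 in the middle one and near 1 in the bottom one.

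The block holds genes of glycolysis, the cell cycle and signalling. GAPDH, the glycolytic enzyme gene often used as a loading control, had a level of 162279 in clone 5, 379144 in clone 4 and 165546 in wild type (clone 5 minus clone 4 -1.22, SE 0.033). The triosephosphate isomerase gene TPI1 stood at 31875 in clone 5 and 65938 in clone 4. The lactate dehydrogenase gene LDHB stood at 21696 in clone 5 and 54813 in clone 4. ENO2, which encodes an enolase, stood at 5222 in clone 5 and 11281 in clone 4, and SLC2A3, the gene of the glucose transporter GLUT3, at 331 in clone 5 and 1044 in clone 4. FOXM1, a driver of mitotic transcription, stood at 5144 in clone 5 and 11188 in clone 4, and the peroxisomal import receptor gene PEX5 at 583 in clone 5 and 1378 in clone 4. The cell cycle inhibitor gene CDKN1B (2154 in clone 5, 3991 in clone 4, difference -0.89) was close to these in size but under 2-fold. EMP1, a membrane protein gene, differed by more than its neighbours, at 3094 in clone 5, 13630 in clone 4 and 3077 in wild type (difference -2.14, SE 0.037). Some genes of the block went their own way. H2AFJ, which encodes a histone H2A variant, stood at 0.51 in clone 5, 179 in clone 4 and 233 in wild type, and SLCO1A2, an organic anion transporter gene, at 112 in clone 5, 1.5 in clone 4 and 5.26 in wild type. The transcription factor gene ETV6 (473 in clone 5, 519 in clone 4) and the receptor gene GPRC5A (4479 in clone 5, 4315 in clone 4) differed by only -0.13 and 0.05. Outside the block 269 genes were higher and 169 lower in clone 5, 3.94% of 11125.

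For the lists below, the shares called over all genes were 2.4% higher and 2.23% lower. Several lists hold called genes that reached the count minimum in 1 table only and thus had to differ in level. Of 21 measured contractile actin-binding genes 6 were called higher and none lower, with a median difference of 0.55. TAGLN, which encodes transgelin, had a level of 15169 in clone 5, 3358 in clone 4 and 14320 in wild type. The myosin light chain gene MYL9 stood at 8446 in clone 5, 2048 in clone 4 and 8317 in wild type. The smooth muscle actin gene ACTA2 stood at 1673 in clone 5, 548 in clone 4 and 2454 in wild type, and the leiomodin gene LMOD1, whose product nucleates actin filaments, at 531 in clone 5, 86.7 in clone 4 and 1452 in wild type. The tropomyosin gene TPM1 stood at 42295 in clone 5 and 20511 in clone 4, and the enteric actin gene ACTG2 at 78.1 in clone 5, 6.35 in clone 4 and 21.5 in wild type. The Status was Outlier in the clone 4 table for TAGLN and MYL9.

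Of 25 targets of YAP and TEAD, the effectors of the Hippo pathway, 3 were higher in clone 5 and none lower, with a median of 0.39. They were CTGF, a matricellular protein gene (24933 in clone 5, 10096 in clone 4), ANKRD1, an ankyrin repeat gene (29308 in clone 5, 9763 in clone 4) and TGFB2, a transforming growth factor gene (8182 in clone 5, 2715 in clone 4). ANKRD1 had the Status Outlier in both tables and TGFB2, which is also counted in the next list, in the clone 5 table. Of 23 TGF-beta and BMP response genes 4 were higher, namely TGFB2, the pseudoreceptor gene BAMBI (695 in clone 5, 237 in clone 4), the follistatin-like gene FSTL3 (4121 in clone 5, 1559 in clone 4) and the ligand gene BMP4 (1739 in clone 5, 850 in clone 4). The BMP antagonist gene NOG was lower, at 31.3 in clone 5 and 64.0 in clone 4. Of 17 collagen genes 3 were higher and 1 lower. COL4A1, a basement membrane collagen, stood at 24683 in clone 5, 7808 in clone 4 and 22603 in wild type. The fibrillar collagen gene COL1A1 stood at 1515 in clone 5, 254 in clone 4 and 2465 in wild type, and COL8A2 at 128 in clone 5 and 36.6 in clone 4. COL11A1, a minor fibrillar collagen, ran the other way, at 2.65 in clone 5, 190 in clone 4 and 634 in wild type, with the Status Outlier in the clone 4 table.

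Adhesion genes went in both directions. Of 29 integrin, laminin and fibronectin group genes 2 were higher and 2 lower. The integrin subunit gene ITGB4 stood at 193 in clone 5 and 30.8 in clone 4, and THBS1, the thrombospondin-1 gene, at 151798 in clone 5 and 68923 in clone 4. Among the lower genes, the collagen receptor subunit gene ITGA2 stood at 2976 in clone 5 and 9403 in clone 4. Of 13 measured clustered protocadherins, neuronal-type adhesion genes expressed from stochastically chosen promoters, 4 were higher and none lower, with a median of 0.03. All 4 reached the count minimum through the clone 5 table only and thus had to differ in level, so their direction is no result about the list. PCDHGB5 stood at 450 in clone 5, 14.8 in clone 4 and 326 in wild type, PCDHB2 at 59.3 in clone 5 and 3.63 in clone 4, PCDHB13 at 68.4 in clone 5 and 4.52 in clone 4, and PCDHGA2 at 96.3 in clone 5 and 24.8 in clone 4. Protocadherin gamma genes share 3′ exons, so their reads may not be separable. PLXNA4, a semaphorin receptor gene, was lower at 305 in clone 5 against 5772 in clone 4, with 173 in wild type and the Status Outlier in both tables.

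Secreted growth regulators also differed in both directions, with 5 higher and 3 lower of 29 FGF, IGF and EGF family genes. Each of these called genes reached the count minimum only in the table of the clone where it was higher. With the minimum met in both tables the list held no call. The insulin-like growth factor binding protein gene IGFBP5 had a level of 453 in clone 5, 27.9 in clone 4 and 770 in wild type, while IGFBP4 had 3.47 in clone 5, 61.4 in clone 4 and 327 in wild type. The platelet-derived growth factor gene PDGFB stood at 114 in clone 5, 4.48 in clone 4 and 234 in wild type. SERPINB2, which encodes plasminogen activator inhibitor 2, stood at 3503 in clone 5, 199.7 in clone 4 and 486 in wild type. Of 15 chemokine and cytokine genes 1 was higher and 3 lower. IL1A stood at 23.9 in clone 5, 199.4 in clone 4 and 11.2 in wild type, IL1B at 485 in clone 5, 1306 in clone 4 and 152 in wild type, and TNFAIP6, an inflammation-induced hyaluronan-binding protein gene, at 4.49 in clone 5, 51.7 in clone 4 and 7.44 in wild type. IL6 was the higher one, at 108 in clone 5 and 45.2 in clone 4. The chemokine gene CCL2 was under the count minimum, at 0.43 in clone 5 and listed at 0 in clone 4, against 614 in wild type. Of 23 immediate early genes none was higher and 4 were lower, with a median of -0.36. They were the AP-1 subunit gene FOS (16.2 in clone 5, 74.3 in clone 4), the transcription factor gene KLF4 (11.2 in clone 5, 45.8 in clone 4), the ERK phosphatase gene DUSP6 (751 in clone 5, 1538 in clone 4) and the ERK feedback inhibitor gene SPRY2 (1248 in clone 5, 2546 in clone 4).

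Lists of the cell cycle, centrosome, cilium and ribosome held no called gene. The S phase and mitosis lists include no gene of the chromosome 12 block, where FOXM1 was called lower. None of 40 S phase and E2F genes (median -0.18), 36 G2 and mitosis genes (-0.23), 36 centriole and centrosome genes (-0.14), 34 hedgehog and cilium genes (-0.06), 79 cytosolic ribosomal protein genes (-0.22) and 28 stress and amino acid genes (-0.31) was called in either direction, and 1 of 87 nuclear oxidative phosphorylation genes was. Over all genes 4.62% were called, so lists of this size would hold few calls in any case. Shifts under 2-fold were present, mostly toward lower levels in clone 5. Below 0 lay 36 of the 40 S phase, 34 of the 36 mitosis and 29 of the 36 centriole genes. The same held for 22 of the 34 cilium, 69 of the 79 ribosomal and 25 of the 28 stress genes. PLK4, the kinase gene of centriole duplication, stood at 1326 in clone 5 and 1605 in clone 4, a difference of -0.27. Of 30 p53 targets 2 were higher, BBC3, which encodes the death effector PUMA (163 in clone 5, 49.9 in clone 4), and the antiproliferative gene BTG2 (298 in clone 5, 136 in clone 4), with a list median of 0.39. The 2 calls are 6.67% of the p53 list, beside 2.4% called higher over all genes, and so few calls do not by themselves set the list apart. Mostly under 2-fold, 27 of the 30 targets lay above 0 and 3 below. The list median of 0.39 stood beside 0.01 over all genes. The cell cycle inhibitor gene CDKN1A stood at 7925 in clone 5 and 4555 in clone 4, under 2-fold. The 26 glycolysis and hypoxia genes held 4 lower and none higher. All 4, GAPDH, TPI1, ENO2 and SLC2A3, lie in the chromosome 12 block, and outside it none of the list was called. The 25 glutathione transferase and NRF2 target genes held 3 higher, AKR1C2, AKR1C3 and MGST2, and 1 lower, MGST1 of the same block. Of 27 potassium, sodium and calcium channel genes 2 were higher and 4 lower, of 23 cathepsins, cystatins and serpins 2 were higher and 3 lower, and of 16 cadherins and adhesion molecules 2 were higher and 1 lower.

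**Figure D4:**
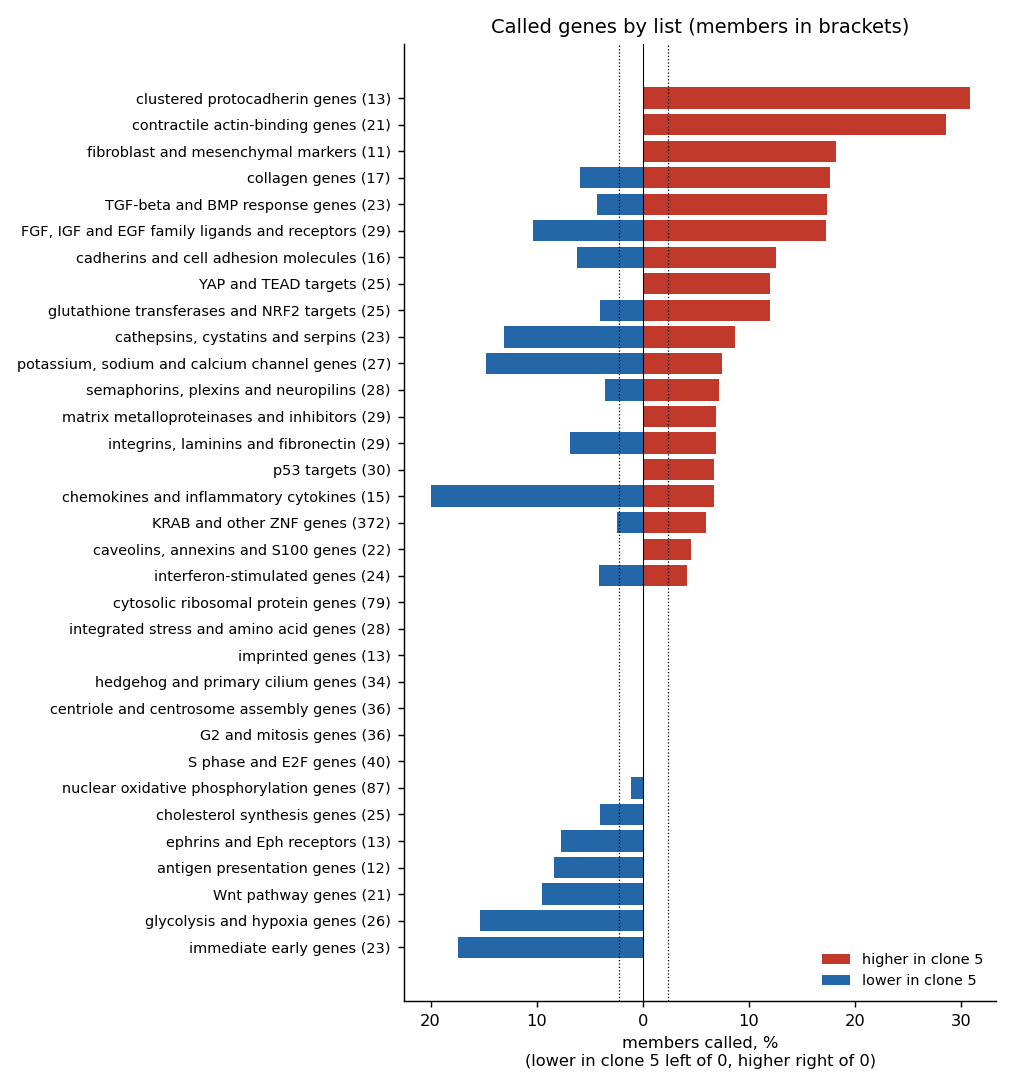
Share of the measured members of each gene list, in %, called higher (bars to the right) or lower (bars to the left) in clone 5, for lists with at least 10 measured members, given in brackets. Dotted lines mark the shares over all genes, 2.4% higher and 2.23% lower. Contractile and clustered protocadherin genes extend farthest to the right, and chemokine, immediate early and glycolysis genes to the left. The called protocadherins reached the count minimum through the clone 5 table only.

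Wild type RPE1, scaled in the same way from the knockout table, gives each clone's distance from the wild type libraries of the series. The labels do not say that the clones were derived from this culture, so a distance from it need not have arisen in the clone. At least 2-fold from wild type were 406 genes in clone 5, 3.6%, and 718 in clone 4, 6.37%. These counts share the wild type libraries, come from levels set across tables and have no test. Without the chromosome 12 block they were 391 in clone 5 and 668 in clone 4. Of the 521 genes called between the clones, 87 had clone 5 alone at least 2-fold from wild type and 242 had clone 4 alone. Among the 270 genes higher in clone 5 clone 4 was the only one apart for 153, and clone 5 for 20. Among the 251 lower genes clone 5 was the only one apart for 67, and clone 4 for 89.

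The clone contrast was set beside the TRIM37 knockout, with which it shares no library. In the authors' deposited table, 780 genes changed at least 2-fold at a q under 0.05 in the knockout, of which 359 were measured in the clones, 3.26% of the 10998 measured genes usable there. Of these 359 genes 160 also differed between the untreated clones, which is 44.6% (exact binomial 95% interval 39.4% to 49.9%, counting error only). They are 20.5% of all 780 knockout genes and 30.7% of the 521 clone calls. Among the other 10914 genes 361 were called, 3.31%. At stricter minimums the share was smaller, both in the knockout genes and in the others. With both tables over the minimum it was 25.1% of the knockout genes (63 of 251) and 2.12% of the others (226 of 10638). At 200 or more in either table it was 36.7% of the knockout genes (76 of 207) and 2.28% of the others, and at 1000 or more it was 30.1% of the knockout genes (22 of 73) and 2.05% of the others. Without chromosome 12 it was 45.8% (152 of 332). Of the 145 genes higher in the knockout 24 were higher and 43 lower in clone 5 than in clone 4. Of the 214 genes lower in the knockout 72 were higher and 21 lower in clone 5.

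Single genes are set side by side in log2 units. EPDR1 changed by -6.52 in the knockout in the authors' deposited table, and differed by -6.55 between the clones. CTSZ changed by -6.00 in the authors' deposited table and differed by 1.97 between the clones. CST1 changed by 5.61 in the authors' deposited table and differed by -5.41 between the clones, where clone 4 was the high one. The log2 fold changes of AKR1C2 and AKR1C3 were 4.18 and 4.32 in the authors' deposited table, and their clone differences were 7.0 and 5.25. The 9 contractile and collagen genes that were higher in clone 5 had these log2 fold changes in the knockout in the authors' deposited table: -0.87 for ACTA2, -0.91 for TPM1, -1.75 for TAGLN, -1.78 for COL1A1, -1.79 for MYL9, -1.80 for COL4A1, -1.92 for ACTG2, -2.23 for LMOD1 and -0.10 for COL8A2. CRISPLD2, a secreted protein gene, changed by -5.33 in the authors' deposited table and stood at 229 in clone 5, 22.2 in clone 4 and 1273 in wild type. POSTN, the periostin gene, changed by 3.25 in the authors' deposited table and stood at 349 in clone 5, 66.1 in clone 4 and 36.9 in wild type. ENG, the endoglin gene, changed by 3.26 in the authors' deposited table and stood at 2.84 in clone 5 and 59.7 in clone 4. DPYSL4, of the collapsin response mediator family, changed by -4.45 in the authors' deposited table and stood at 25.3 in clone 5, 390 in clone 4 and 298 in wild type.

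**Figure D5:**
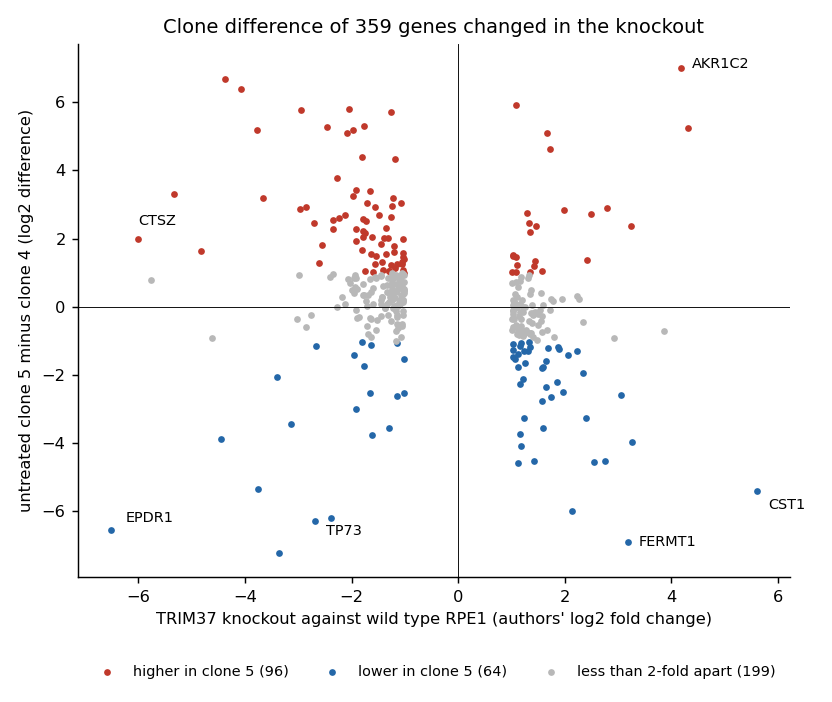
Clone 5 minus clone 4 difference (log2, vertical axis) against the authors' log2 fold change of the TRIM37 knockout over wild type RPE1 (horizontal axis) for the 359 measured genes changed in the knockout. Of these, 96 were called higher and 64 lower in clone 5, in all 4 quadrants.

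A trend with base composition ran through the contrast. In 5 groups of equal size by transcript GC content, the median difference was -0.063, -0.040, -0.0064, 0.036 and 0.154 from the lowest to the highest GC, over the 11077 genes whose GC content was known. The median was 0.13 on chromosome 19 and 0.090 on chromosome 22, over genes whose mean count reached 100 in either table, and with the GC trend removed they were 0.029 on chromosome 19 and 0.023 on chromosome 22. With the trend removed 253 genes were higher and 256 lower in clone 5. Its part in the smaller differences was not tested.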

How the data were processed

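The authors ran STAR and DESeq2, per the submitters' processing notes, which give no version. Genome build, strandedness and counting rule: not given in the sources used here. The 5 deposited tables hold, per the file headers, a Status, a mean count, a log2 fold change with its standard error and a q-value, per gene, with 3 significant digits. The tables of clone 5, clone 4 and the knockout were used, and the CHP-134 tables were not. The sign of TRIM37 set each direction. The tables summed to 23601173 mean counts for clone 5, 26400076 for clone 4 and 36605941 for the knockout. The depth of each library is unknown.

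An untreated level is 2 times the mean count over 1 plus the ratio. Its SE is that of the table over the square root of 2, with the delta method for the pseudocount of 1, and a level of 0 got the counting error of 3 counts over 3 libraries. The deposited log2 fold changes look shrunken at low counts, since their SE peaks at 0.204 and has a median of 0.040 at mean counts under 0.3, so these SEs understate the error of low levels. Normal tests, with Benjamini-Hochberg adjustment over all 11273 genes, were run with Python 3.11.15, numpy 2.4.6, scipy 1.17.1 and pandas 2.3.3, and were tested on simulated data.

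Members and the 43 gene lists were chosen with earlier results of these data known. Genes are named as the 15 highest and 15 lowest called differences without Status Outlier, TRIM37, EPDR1, CST1, CTSZ and CCL2, the 4 largest called differences of lists with at least 3 calls, the on-off genes, and the 5 largest knockout changes in each direction among genes called in both. Other named genes, those of the chromosome 12 block included, were picked with their values in view. Some genes that these rules name are not reported here. RefSeq gave chromosomes and gene order by symbol, for 11108 genes. GC content came from GENCODE transcripts.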

Additional observations from a re-analysis of the deposited data

Results flagged for a closer look

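Among the named genes, 5 differed between the clones by another amount in doxycycline-treated than in untreated libraries, by a normal test of the interaction (clone 5 minus clone 4 difference in treated minus untreated libraries) adjusted over all 11273 genes. TRIM37 itself gave -0.55, SE 0.061 (adjusted p = 5.81e-16), with levels of 41261 in treated clone 5 and 33797 in treated clone 4, against 6619 in untreated clone 5 and 3703 in untreated clone 4. CTGF gave -0.31, SE 0.056 (adjusted p = 8.5e-05), FSTL3 gave -0.27, SE 0.058 (adjusted p = 0.00284), NTN4 gave -0.18, SE 0.046 (adjusted p = 0.0316) and ENO2 gave 0.19, SE 0.050 (adjusted p = 0.0368). In each of these the clone difference was smaller in treated libraries and kept its sign. CTGF, FSTL3, NTN4 and ENO2 were named because their untreated difference passed 2-fold. That choice by itself favours a smaller treated difference, so the shared direction is not a separate result. Over all genes 33 interactions passed, 8 of them among the 521 genes called between the untreated clones.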

How the results depend on the processing

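The counts of 270 higher and 251 lower genes moved most with the minimum fold and the count minimum. They were 646 and 478 at 1.5-fold, 99 and 72 at 4-fold, and 3206 and 2809 with no minimum fold. With mean counts of 50 or more in both tables they were 142 higher and 147 lower. At 200 or more in either of them, 135 were higher and 157 lower, and at 10 or more, 431 and 363. The other alternatives stayed within 1.5 times the reported counts. Those ran from 195 higher and 188 lower, with the test statistic rescaled to its own central spread, to 274 higher with the shrinkage removed and 260 lower when scaled by the median ratio. Removing the shrinkage, removing the GC trend and leaving out the chromosome 12 block (269 and 169) were chosen after seeing the data.

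The share of knockout genes that also differed between the clones was 25.1% with mean counts of 50 or more in both tables and 25.1% at 4-fold, against 44.6% as reported. No named gene changed sign in 432 recalculations, and 12 fell under 2-fold, 8 of them in treated libraries, among these CTGF, ENO2 and TPI1. SEMA4G fell under 2-fold under 3 of its alternatives. Of the recalculated list medians 164 moved by less than the median SE of a gene and 21 by more, 10 of them in treated libraries. Of the chromosome medians only those of chromosomes 19 and 22 moved, with the GC trend removed.

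No paired analysis was possible because the tables give no value per library, and for the same reason no library was left out in turn. Depth cannot be set for any library, and levels under about 1 count rest on a few reads.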
